A study of Homo sapiens with 3 samples.

Results

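Peaks of Myc-tagged Idax were examined in 4 gene clusters that hold many human keratin and epidermal differentiation genes. The clusters held 1 to 4 peaks each, and 3 of the 4 lay between flanks with far more peaks. The clusters were defined by position on the human build hg19: the type I keratins with their associated proteins at chr17:38800000-39790000, the type II keratins at chr12:52560000-53350000, a group of keratin-associated proteins at chr21:31650000-32260000, and the epidermal differentiation complex at chr1:152000000-153600000. Members were chosen by overlap of 1 bp or more with these intervals, without regard to their values. They numbered 10 of the 17127 peaks analysed. All 10 came from the list of 17089 wild-type peaks and none from the list of 38 peaks of the DNA-binding mutant.

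The peaks come from chromatin immunoprecipitation with sequencing (ChIP-seq) in HEK293T, a cell line of human embryonic kidney origin with the large T antigen of SV40. Stable lines had been transfected with wild-type Myc-Idax, with a DNA-binding mutant of it (Myc-IdaxDBM) or with an empty vector, and an anti-c-Myc agarose gel was used in all 3. The design text gives 2 replicates per condition and describes sites detected over the empty-vector cells. Analysed here were 1 peak list for the wild type and 1 for the mutant, so the values have no replicate error and no test between conditions was possible. The sources used here do not say whether each stable line was 1 clone or a pool. No expression was measured, so the cell type could not be checked against its markers.

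Idax (CXXC4) carries a zinc finger of the CXXC type, which recognises unmethylated CpG in DNA. Keratins are the intermediate filament proteins of epithelial cells, and each filament pairs a type I with a type II chain. KRT5 and KRT14 form the pair of basal epidermal cells, KRT1 and KRT10 that of the layers above, and KRT8 and KRT18 that of simple, single-layered epithelia. Keratin-associated proteins (KRTAP genes) embed the hair keratins in the hair shaft. The epidermal differentiation complex encodes proteins of the cornified envelope, such as involucrin (IVL), loricrin (LORICRIN) and the SPRR and LCE families. It also encodes the fused S100 proteins, such as filaggrin (FLG) and trichohyalin (TCHH), and the calcium-binding S100A proteins.

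Promoters of these genes are shown because CpG is what a CXXC finger recognises. Each stretch holds the 250 bases before the only start listed for the gene, 5′ to 3′, from RefSeq on GRCh38.p14. Every CpG is in capitals. Starts that are not listed were not examined, so a stretch, that of KRT8 included, need not be the main promoter of its gene. KRT5 is at chr12:52520395-52520644, minus strand, KRT8 at chr12:52926470-52926719, minus strand, LORICRIN at chr1:153259437-153259686, plus strand, and FLG at chr1:152325240-152325489, minus strand. KRTAP26-1, which has the median CpG count of its chromosome 21 group, is at chr21:30320316-30320565, minus strand. S100A11, chosen after its CpG count was seen, is at chr1:152037005-152037254, minus strand. These positions are on another build than the peaks, and neither was converted to the other.
KRT5: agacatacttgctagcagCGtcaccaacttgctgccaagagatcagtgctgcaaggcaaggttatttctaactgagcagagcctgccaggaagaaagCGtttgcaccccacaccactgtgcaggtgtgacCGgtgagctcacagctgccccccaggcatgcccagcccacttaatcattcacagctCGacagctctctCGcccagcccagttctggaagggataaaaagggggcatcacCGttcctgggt
KRT8: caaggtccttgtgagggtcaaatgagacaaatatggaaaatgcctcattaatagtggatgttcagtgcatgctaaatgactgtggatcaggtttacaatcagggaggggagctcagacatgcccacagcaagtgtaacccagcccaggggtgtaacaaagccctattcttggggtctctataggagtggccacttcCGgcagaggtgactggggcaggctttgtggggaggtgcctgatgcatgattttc
LORICRIN: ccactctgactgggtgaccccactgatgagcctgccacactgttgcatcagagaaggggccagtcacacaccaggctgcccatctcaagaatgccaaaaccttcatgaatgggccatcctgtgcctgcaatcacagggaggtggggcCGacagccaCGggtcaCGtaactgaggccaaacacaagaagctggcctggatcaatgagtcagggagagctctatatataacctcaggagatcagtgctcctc
FLG: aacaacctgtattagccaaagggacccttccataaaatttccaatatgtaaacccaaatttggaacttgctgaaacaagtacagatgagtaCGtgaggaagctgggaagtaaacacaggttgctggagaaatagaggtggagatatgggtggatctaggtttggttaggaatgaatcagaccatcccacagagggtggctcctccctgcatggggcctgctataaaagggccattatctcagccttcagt
KRTAP26-1: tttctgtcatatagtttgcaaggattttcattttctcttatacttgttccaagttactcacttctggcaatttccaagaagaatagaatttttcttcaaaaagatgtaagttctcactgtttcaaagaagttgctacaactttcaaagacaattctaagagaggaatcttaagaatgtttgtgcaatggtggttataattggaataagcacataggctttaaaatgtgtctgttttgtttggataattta
S100A11: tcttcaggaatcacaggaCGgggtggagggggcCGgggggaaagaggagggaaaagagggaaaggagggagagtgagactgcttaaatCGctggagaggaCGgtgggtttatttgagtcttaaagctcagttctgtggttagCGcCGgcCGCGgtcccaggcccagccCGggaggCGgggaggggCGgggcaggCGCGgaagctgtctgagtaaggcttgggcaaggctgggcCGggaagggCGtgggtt
FLG has 1 CpG in its stretch, KRT8 has 1, LORICRIN has 3 and KRT5 has 6, whereas S100A11 has 15. The stretch of KRTAP26-1 has 0, while the median of its group over the bases before the start was 0.4 CpG per 100 bases.

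CpG was rare at the cluster promoters that had a sequence. Over 300 bases (250 before and 50 after the start), 156 of the 185 protein-coding genes of the 4 blocks had a sequence, and their median was 0.67 CpG per 100 bases. The median over 15843 protein-coding genes on the 23 chromosomes that the promoter table covers was 7.17. Of the 156 genes, 3 (1.92%, exact Clopper-Pearson 95% interval 0.398 to 5.52) reached that median, against 50.1% of all genes. The interval counts each gene as independent. Keratin-associated, LCE and SPRR genes include similar copies, so it may be too narrow. All 3 encode S100A proteins: S100A10 with 10.7 CpG per 100 bases, S100A6 with 10.3 and S100A11 with 7.33. Most genes without a sequence were keratins, among them KRT7, KRT14, KRT18 and KRT19, and the share does not cover these. By the ratio of observed to expected CpG, 4 of 156 genes (2.56%) were at 0.6 or more, against 63.8% of all genes. The genes were grouped by name and by their order on GRCh38.p14, so the edges of these blocks and of the hg19 intervals were not compared.

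Of the groups with enough sequences to compare, the S100A genes held the highest CpG content. Among the keratin-associated proteins, the 33 genes with a sequence on chromosome 17 and the 30 on chromosome 21 each had a median of 0.67 CpG per 100 bases. The highest values were 3.67 (KRTAP17-1) on chromosome 17 and 1 on chromosome 21. The 29 cornified envelope genes also had a median of 0.67, and IVL, an early envelope protein, had no CpG in its 300 bases. The 7 fused S100 genes had a median of 0.33, and the highest of them had 1. The 16 S100A genes had a median of 1.67 and ranged from 0.33 to 10.7. For the 28 type I keratins and the 27 keratins of the type II cluster only 71.4% and 51.9% had a sequence, so a comparison of these groups is void; KRT9, the keratin of palm and sole skin, had 2.67 CpG per 100 bases and KRT10 had 0.33. Genes next to the epidermal differentiation complex, 63 on each side, differed from it: 109 of these 126 had a sequence, with a median of 6.67. For genes beside the other 3 clusters between 71.2% and 77.8% had a sequence, so no such comparison was made there.

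A TATA box sequence was frequent at these promoters. TATAAA, searched on both strands of the 300 bases, was present in 105 of the 156 cluster genes (67.3%, 95% interval 59.3 to 74.6) and in 12.4% of all genes. This interval also counts genes as independent, although many are similar copies, and may be too narrow. The share was 29 of 33 among the chromosome 17 keratin-associated proteins, 23 of 30 on chromosome 21, 18 of 29 among the cornified envelope genes and 7 of 16 among the S100A genes. The median GC content was 45.5% at the cluster promoters and 62.3% over all genes. A sequence of A and T is more likely by composition where GC is lower, and the shares were not adjusted for this. Such a match describes the sequence and does not show a functional site.

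**Figure D1:**
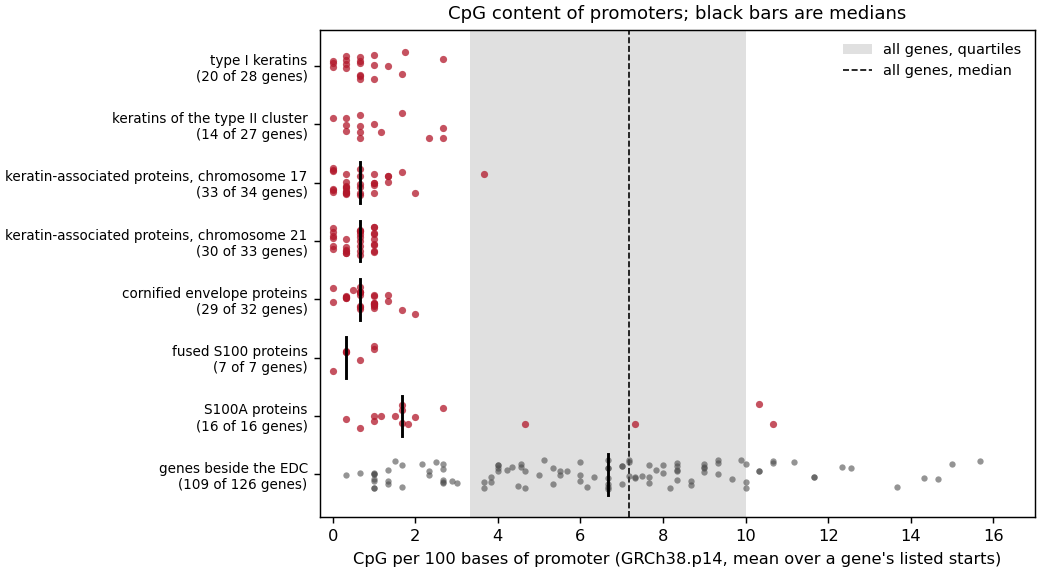
CpG per 100 bases of promoter (horizontal axis) for the genes of each group (1 point per gene, red) and for the genes beside the epidermal differentiation complex (EDC, grey). Black bars are medians, drawn where at least 80% of the group had a sequence; the grey band and dashed line are the quartiles and the median (7.17) of all genes. All red points but 3 S100A genes lie below the dashed line.

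As a pool, the clusters held fewer wild-type peaks per Mb than the stretches beside them. The 4 clusters (3.99 Mb) held 10 peaks, or 2.51 per Mb (exact Poisson 95% interval 1.20 to 4.61). The adjoining flanks, each as long as its cluster on either side (7.98 Mb), held 181 peaks, or 22.7 per Mb (19.5 to 26.2). The density in the clusters was thus 0.110 times that of the flanks (exact 95% interval 0.052 to 0.208). Intervals cover counting error only, and since neighbouring peaks are not independent no p-value is given. Against the remaining genome outside clusters and flanks, the clusters had 0.443 times the density (0.212 to 0.814) and the flanks 4.01 times (3.44 to 4.64). Both the low count of the clusters and the high count of the flanks therefore enter the contrast.

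The lowest ratio was that of the type I keratins. This cluster of 62 genes held 2 peaks, against 24 in the left flank and 37 in the right flank, a density ratio of 0.066 (0.0078 to 0.247). In the epidermal differentiation complex 3 peaks stood against 32 and 44 in its flanks (0.079, 0.016 to 0.240). The type II keratins held 4 peaks against 15 and 27 (0.190, 0.050 to 0.525). At the keratin-associated proteins of chromosome 21 there was no contrast to measure: the cluster held 1 peak, the left flank 0 and the right flank 2 (ratio 1, interval 0.017 to 19.2). Within the clusters, the density was 2.02 per Mb at the type I keratins, 5.06 at the type II keratins, 1.64 on chromosome 21 and 1.88 in the epidermal differentiation complex, against 5.70 over the whole list. The type II interval (1.38 to 13.0) and the chromosome 21 interval (0.042 to 9.13) include the value of the whole list, as does that of the type I cluster (0.245 to 7.30). The interval of the epidermal differentiation complex (0.387 to 5.48) does not. Whole chromosomes had 13.4 per Mb (chromosome 17), 6.34 (chromosome 12), 5.37 (chromosome 21) and 6.60 (chromosome 1). The values of chromosomes 17 and 1 lie above the intervals of their clusters. The flanks on chromosome 21 had 1.64 per Mb and were thus not dense. The intervals of the other 3 ratios overlap each other, so their order is not resolved.

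**Figure D2:**
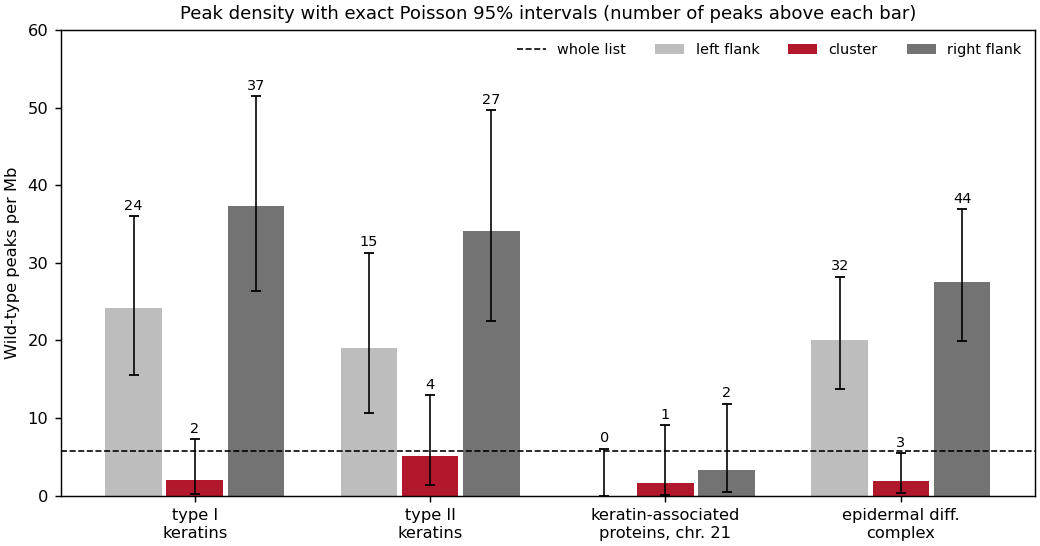
Wild-type peaks per Mb (vertical axis) in the left flank, the cluster and the right flank of each of the 4 clusters. Bars carry exact Poisson 95% intervals and the number of peaks, and the dashed line is the whole list (5.70 per Mb). The red bars of the type I keratins, type II keratins and epidermal differentiation complex lie below both of their flanks.

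Peaks covered 11.6 kb of the clusters (0.291%) and 2.89% of the flanks. In fixed windows of 10 kb, 10 of 399 cluster windows (2.51%, 95% interval 1.21 to 4.56) and 182 of 798 flank windows (22.8%, 19.9 to 25.9) held a peak, against 5.64% of windows over the span of the whole list.

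A low count alone was common in the genome. Of 3019 fixed windows as long as the type I cluster, 41.8% held 2 or fewer peaks. Stretches to which no reads can map were not left out of the windows, which can raise such shares. The shares of windows with as few peaks as the cluster were 64.7% at the length of the type II cluster (4 or fewer), 44.9% at that of the chromosome 21 cluster (1 or fewer) and 33.5% at that of the epidermal differentiation complex (3 or fewer). Among windows of the cluster's own chromosome, the share was lower for the type I cluster (17.3%, median 11 peaks) and the epidermal differentiation complex (24.5%, median 8). It was 63.9% for the type II cluster (median 3) and 50% for the chromosome 21 cluster (median 1.5). A low count between dense neighbours was found in at most 1 window at the lengths of each of the 3 clusters with dense flanks, but few windows had such neighbours. Of 23 windows of the type I length whose adjoining windows together held 61 or more peaks, 0 held 2 or fewer (0%), and the lowest held 11. At the type II length 1 of 64 windows (1.56%) with 42 or more peaks beside it held 4 or fewer. For the epidermal differentiation complex it was 1 of 30 (3.33%), and that window overlapped the complex itself. For the chromosome 21 cluster, with 2 peaks in its flanks, it was 1178 of 3646 (32.3%). Over the whole list, windows of these lengths held a median of 4 peaks (type I length), 3 (type II), 2 (chromosome 21) and 6 (epidermal differentiation complex), so the type II cluster with 4 peaks was above its median and the other 3 clusters below theirs. The limits were the clusters' own counts and the windows were not placed at random. No window coincided with the type I or the type II cluster, so neither is counted among the windows that were low between dense neighbours. The shares therefore depend on where the windows begin. These shares are descriptions without intervals.

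**Figure D3:**
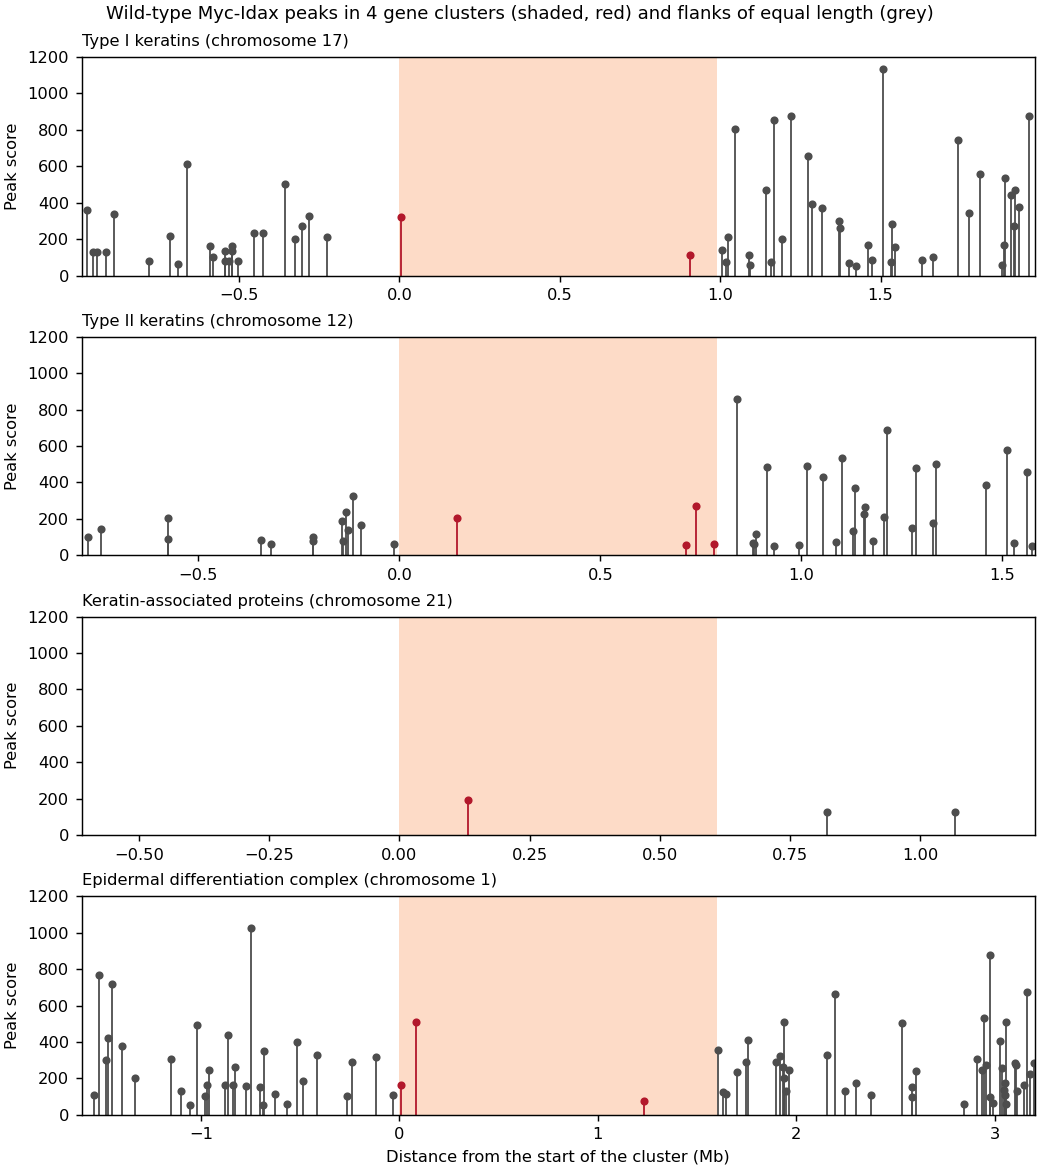
Wild-type peaks of the 4 clusters (red, shaded) and their flanks (grey), drawn as stems at their distance from the start of the cluster in Mb (horizontal axis) with the height giving the deposited score (vertical axis). Stems stand densely on both sides of the type I, type II and epidermal differentiation clusters, while the chromosome 21 panel has 3 stems in all.

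The 2 peaks of the type I keratin cluster lay toward its ends. The first, chr17:38803595-38805072, began 3.6 kb inside the left edge and scored 319 over 1478 bp. SMARCE1, a chromatin remodelling subunit that is no keratin, is the next protein-coding gene before KRT222, the first keratin gene of the block. The second peak, chr17:39704774-39706008, ended 84.0 kb before the right edge and had a score of 111 over 1235 bp. Between them lay 899701 bp without a peak, 90.9% of the cluster, which is the 7th longest of 1081 peak-free stretches on chromosome 17.

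Of the 4 peaks of the type II cluster, 3 were gathered in its last 100 kb. They were chr12:53273088-53273713 (score 58.9, 626 bp), chr12:53296966-53298065 (score 269, 1100 bp) and chr12:53342470-53343165 (score 61.6, 696 bp). KRT8 and KRT18, the simple epithelial pair, are the last 2 genes of the block in the GRCh38.p14 order. Whether a peak lies at either gene was not determined, since no hg19 annotation was used here, and the same holds for every peak named. The remaining peak, chr12:52701803-52702845 (score 204, 1043 bp), lay 141.8 kb from the left edge. A stretch of 570242 bp without a peak, 72.2% of the cluster, separated it from the other 3 and ranked 54th of 846 on chromosome 12.

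In the keratin-associated protein cluster of chromosome 21 the single peak was chr21:31780972-31781765, with a score of 191 over 794 bp. It stood 131 kb from the left edge. The nearest other wild-type peak was 688964 bp away, across a stretch that ranked 10th of 204 on chromosome 21. Towards the left, 1108723 bp were free of peaks (7th of 204), so the surroundings of this cluster held as few peaks per Mb as the cluster.

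The epidermal differentiation complex had 2 peaks near its left edge and 1 far from it. At 8.5 kb from the edge, chr1:152008478-152009875 had a score of 162 over 1398 bp. At 82.6 kb, chr1:152082631-152085120 had a score of 510 and was the strongest and, with 2490 bp, the widest of the 10 members. In the gene order S100A10 and S100A11 come first, followed by TCHHL1 and TCHH. S100A10 and S100A11 are among the 3 CpG-rich promoters named above, and TCHH has 1 CpG per 100 bases. The third, S100A6, comes late in the gene order, between S100A7 and S100A5, and the last 365.6 kb of the complex held no peak. Whether S100A6 lies in that stretch was not determined. Nor was it determined whether S100A10 and S100A11 lie inside the hg19 interval or at either of the 2 left peaks. The third peak, chr1:153233619-153234373, scored 74.4 over 755 bp. The 1148498 bp before it, 71.8% of the complex, were free of peaks and ranked 26th of 1638 such stretches on chromosome 1. The first peak beyond the right edge followed 6.0 kb outside it, at chr1:153606002-153607277, with a score of 354.

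Over the 8 edges of the 4 clusters together, each step of 100 kb inside held fewer peaks than any step outside. The 100 kb inside the edges (0.8 Mb in all) held 7 peaks, or 8.75 per Mb (3.52 to 18.0). The next 100 kb held 2 (2.5 per Mb, 0.303 to 9.03) and the third 100 kb held 0 (upper limit 4.61 per Mb). These intervals overlap that of the first 100 kb, so a decline from step to step inside is not resolved. Each of the 6 steps of 100 kb outside the edges held between 13 and 20 peaks. Their densities ran from 16.3 per Mb (8.65 to 27.8) to 25 per Mb (15.3 to 38.6). All 6 intervals overlap that of the first 100 kb inside, so a drop at the edge itself is not resolved. The interval of the third 100 kb inside lies below all 6. The 7 peaks came from 4 of the 8 edges, and 3 of them from the right edge of the type II cluster.

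Distances to the first peak outside ranged widely. The nearest were 6.0 kb beyond the right edge of the epidermal differentiation complex, as given above, and 13.6 kb before the type II cluster (chr12:52545673-52546368, score 61.2). At the right edge of the type I cluster the first outside peak lay 13950 bp away (chr17:39803951-39805356, score 139), and at its left edge 225.1 kb away (chr17:38573495-38574946, score 214). The left edge of the epidermal differentiation complex had its first outside peak at 32.9 kb (chr1:151964641-151967072, score 111), and the right edge of the type II cluster at 49.7 kb (chr12:53399661-53401360, score 861). Both edges of the chromosome 21 cluster were far from any outside peak, with 977.8 kb on the left (chr21:30670354-30672248, score 681) and 210.7 kb on the right (chr21:32470730-32471877, score 124).

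**Figure D4:**
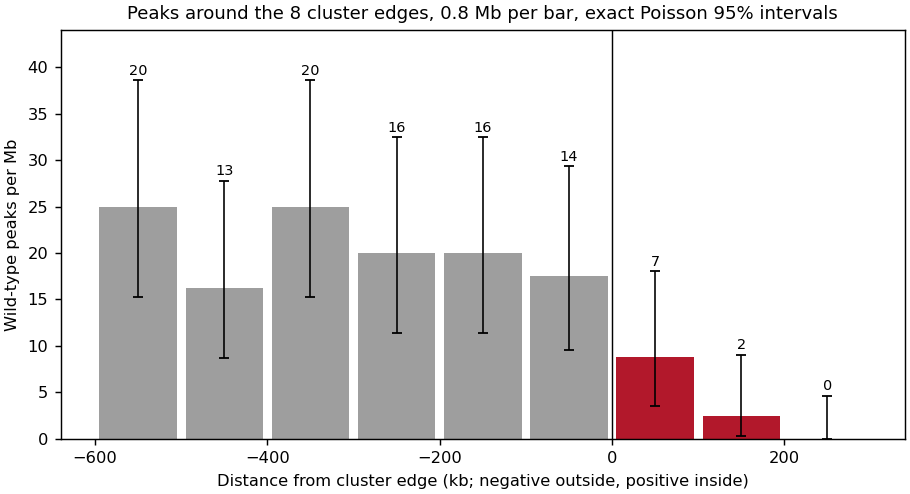
Wild-type peaks per Mb (vertical axis) by distance of the peak centre from the nearest cluster edge in kb (horizontal axis; grey outside, red inside), summed over the 8 edges, with exact Poisson 95% intervals and the number of peaks. Counts are 13 to 20 in the 6 outer bins and 7, 2 and 0 in the 3 inner bins.

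The members, which are part of the list, ranged from its percentile 5.49 to 83.6 in score and from 6.76 to 96.8 in width. Scores, the authors' own values, ran from 58.9 to 510 with a median of 176, against 204 in the flanks and 223 in the whole list. Of the 10, 7 lay below the list's median (70%, 95% interval 34.8 to 93.3), an interval that includes 50%. The strongest member ranked 2801 in the list. The strongest flank peak of each cluster scored 1134 (type I, right flank, chr17:40306248-40307882), 1025 (epidermal differentiation complex, left flank, chr1:151253299-151255750), 861 (type II, right flank, chr12:53399661-53401360) and 124 (chromosome 21, right flank, chr21:32470730-32471877). The last is below the 191 of the peak inside its cluster. Widths had a median of 1072 bp in the clusters, 1180 bp in the flanks and 1116 bp in the list. All 10 members stood at least 10 kb from the nearest other wild-type peak, as did 58.0% of flank peaks and 66.3% of the list. For 4 of the 10 that distance was 100 kb or more, against 2 of 181 flank peaks (1.10%) and 16.1% of the list, a distance that is tied to the density itself.

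**Figure D5:**
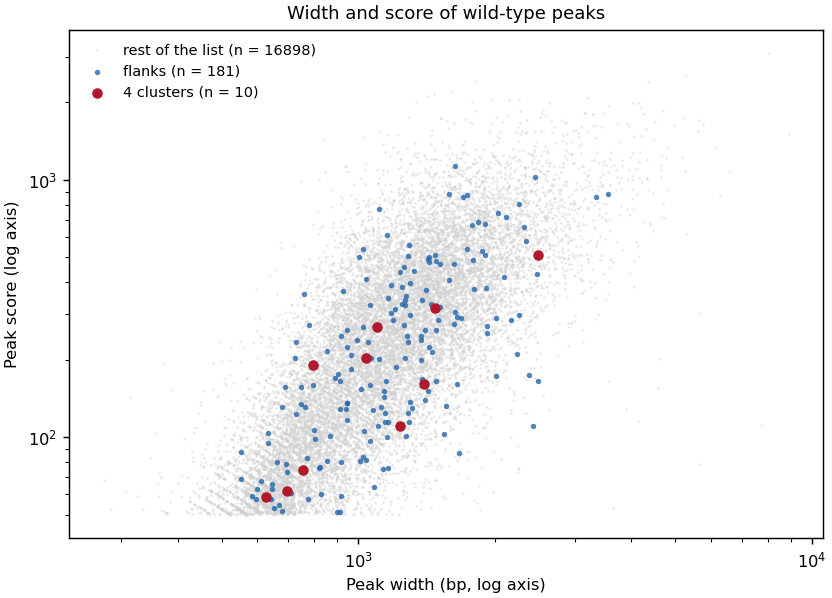
Score against width of each wild-type peak (both axes logarithmic) for the 10 cluster peaks (red), the 181 flank peaks (blue) and the remaining 16898 (grey). The red points, which are part of the list, lie between 58.9 and 510 in score.

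The mutant list had no peak in the clusters or in their flanks. The nearest mutant peaks lay 9.09 Mb from the epidermal differentiation complex (chr1:142905288-142905480, score 56.1), 17.5 Mb from the type I cluster (chr17:57287236-57287455, score 67.7) and 21.8 Mb from the chromosome 21 cluster (chr21:9825438-9826639, score 75.3). Chromosome 12 held none. With 38 mutant peaks in all, this count does not distinguish the clusters from the rest of the genome.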

How the data were processed

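The members and lists were chosen with earlier results of these data known. Per the submitters' processing notes, Bowtie 0.12.7, MACS 1.4.1 and hg19 were used; the sources used here do not say how replicates were combined or how reads matching several places were treated. Keratin-associated, LCE and SPRR genes include similar copies, so peaks there could be affected, which was not tested. The authors deposited a score per peak; its scale is not stated, the lowest was 50.01 in the wild-type list, and depth is unknown. Starts were converted to 1-based positions. Peaks were counted by overlap of 1 bp in each cluster and in 2 flanks of its length, tested on simulated peaks with known counts. Fixed windows tiled each chromosome between its outermost wild-type peaks. No stretch was left out as unmappable from the windows, the whole-list and chromosome densities or the ranks of peak-free stretches. Density ratios have exact conditional intervals. Promoter sequences came from RefSeq (GRCh38.p14), with values averaged over a gene's listed starts. KRT14 and KRT18, also chosen for display, are not shown. Named peaks are all members and the nearest peak outside each edge, plus, chosen later, the strongest flank peaks and nearest mutant peaks. Genes at peaks were not counted, since no hg19 annotation was used here. Calculations used SciPy 1.17.1 and pandas 2.3.3 under Python 3.11.15, and figures matplotlib 3.10.9.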

Additional observations from a re-analysis of the deposited data

How the results depend on the processing

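No paired analysis was possible because the wild type and the mutant each have 1 peak list, which also leaves no replicate to omit. The density ratio of clusters to flanks (0.110) ran from 0.086 to 0.141 over 13 alternatives: score 100 or more, merging within 1 kb, shorter or longer flanks, peak centres, each cluster left out in turn and, chosen after seeing the data, left or right flanks alone, type I flanks left out, and 50 kb at each edge left out. The last setting left 7 cluster peaks. The median CpG per 100 bases of cluster promoters was 0.5 over the bases before the start, against 0.67. It fell outside the interval of that median, which had no width (0.67 to 0.67), though within 1.5 times of it. The other 26 of 27 alternatives stayed within the interval of the value they bear on or, where it had none, within 1.5 times of it. Genes with a peak at their start were planned and not run, since no hg19 annotation was used here.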

Other observations

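The 1 window of the type II length that held as few peaks between neighbours as dense lay on chromosome 19, from 8690012 to 9480012, with 4 peaks. It was singled out after its value was seen.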
